A study of Mus musculus with 10 samples.

Results

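The Id genes Id1, Id2, Id3 and Id4 and the feedback genes Smad6, Smad7, Skil, Tgif1 and Bambi are transcriptional readouts of TGF-beta and BMP signalling. They were taken from the array by the RefSeq accession that each probe carries, which gave 10 probes for the 9 genes among 55681 probes and 20972 named genes. That rule reads accessions and no signal. Skil had 2 probes and the other members had 1 each.

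RNA was measured from LSK cells, the marrow fraction sorted as lineage-marker-negative and positive for Sca-1 and c-Kit, in which blood stem cells and multipotent progenitors lie, on 10 one-colour arrays. The cells were sorted for CD45.2 from the marrow of transplanted C57BL/6 mice. Every group had the tamoxifen-inducible Cre-Ert and received tamoxifen. The control genotype was Cre-Ert alone (WT) and the deleted genotype was Cre-Ert;Ezh2fl/fl (KO), in which tamoxifen removes Ezh2, the enzyme with which Polycomb places the repressive trimethyl mark on histone H3. The promoter that drives Cre-Ert and the age of the mice are not given in the sources used here. At 3 months after transplantation there was 1 WT array and 1 KO array, both labelled without disease. At 9-12 months there was 1 WT array, 1 KO array labelled as a mixture of diseases, 2 KO arrays labelled MDS (myelodysplastic syndrome), 3 labelled MDS/MPN (myelodysplastic and myeloproliferative) and 1 labelled not determined. In the MDS/MPN group, the label of replicate 1 adds TC, which is not explained, and that of replicate 3 adds CMMoL. The last 6 KO arrays have titles of their own and are called the 6 individual KO arrays here. The labels do not say whether each is 1 mouse, and they do not say whether the mixed, WT and 3-month arrays were pooled, although the series text gives 3 animals at 3 months. P-values therefore measure the spread between these samples.

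The 3-month WT and KO arrays lay on slide 1 and the other 8 arrays on slide 2, so time and slide cannot be told apart. The time labels also conflict within the deposit. In the value table, the columns labelled as WT and mixed KO at 9-12 months matched the scanner files of slide 1, and the 3-month columns matched those of slide 2. Across probes, log2 of column over matching file had an SD of at most 0.00126, against at least 0.642 for the next file. Arrays are therefore named by slide below, with slide 1 standing for the 3-month label of the scanner files, and no difference between slides is called a difference of time. The table's labels turn the direction for several members, as given beside the results. Spots well above background made up 32.5% to 47.5% of probes per array, lowest on MDS/MPN replicate 1 and highest on MDS/MPN replicate 2, and none was saturated. The 75th percentile of the signal ran from 78.7 to 301.7 intensity units, the highest again on MDS/MPN replicate 2. For Ezh2 itself, the log2 level on slide 2 was 2.63 for WT and 2.13 to 3.35 for the 6 individual KO arrays. On slide 1 it read 2.13 for WT and 2.70 for KO. Its position relative to the deleted part was not analysed here, so it does not check the deletion. LSK markers were present throughout, with 10 to 12 of 12 well above background on each array.

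Id proteins have a helix-loop-helix domain but no basic DNA-binding region, so they hold E proteins such as Tcf3 and their tissue-specific partners off E-box sites. BMP ligands act through Smad1, Smad5 and Smad9 and induce Id genes directly. TGF-beta acts through Smad2 and Smad3. Both pathways also induce their own brakes: Smad6 and Smad7 block the receptors and receptor Smads, Skil and Tgif1 are co-repressors that bind Smads, and Bambi is a pseudoreceptor without a kinase domain. In blood-forming cells, TGF-beta is known for holding stem cells in quiescence, and Id1, Id2 and Id3 for steering self-renewal and the choice among myeloid, erythroid and lymphoid fates.

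RefSeq promoter windows were at hand for 5 of the 9 members, on build GRCm38.p6. Those of Id3, Smad6 and Id2 are shown, from 250 bases before to 20 bases after the start of transcription, because Id2 and Id3 are the measured Id genes among them and Smad6 was lower on every KO array. Capitals mark matches on either strand to the Smad palindrome GTCTAGAC, the short Smad-binding element CAGAC, the GC-rich motif GGCGCC of the BMP Smads, and the E-box CANNTG. The matches do not overlap one another.
Id3, chr4:136143572-136143841, plus strand: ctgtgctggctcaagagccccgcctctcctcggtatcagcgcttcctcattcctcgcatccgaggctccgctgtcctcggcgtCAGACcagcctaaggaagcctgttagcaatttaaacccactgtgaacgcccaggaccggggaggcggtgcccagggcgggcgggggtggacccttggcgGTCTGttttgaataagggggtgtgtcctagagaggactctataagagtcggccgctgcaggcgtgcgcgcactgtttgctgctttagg
Smad6, chr9:64022040-64022309, minus strand: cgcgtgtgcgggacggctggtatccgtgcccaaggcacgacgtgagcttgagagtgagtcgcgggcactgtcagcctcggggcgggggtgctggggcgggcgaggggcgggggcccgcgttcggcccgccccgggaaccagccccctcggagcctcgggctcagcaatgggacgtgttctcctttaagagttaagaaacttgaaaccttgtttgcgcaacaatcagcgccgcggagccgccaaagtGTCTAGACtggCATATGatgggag
Id2, chr12:25096073-25096342, minus strand: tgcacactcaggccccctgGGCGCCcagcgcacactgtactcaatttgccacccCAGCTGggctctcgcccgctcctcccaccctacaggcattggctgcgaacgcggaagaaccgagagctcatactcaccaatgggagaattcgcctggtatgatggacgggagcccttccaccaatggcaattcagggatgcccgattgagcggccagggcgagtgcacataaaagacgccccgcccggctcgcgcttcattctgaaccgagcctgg
The Smad6 window held 1 palindrome, which began 4 bases before the start and ran across it, and 1 E-box after it. Among all 32851 windows of 270 bases, 0.183% held the palindrome. The Id3 window held CAGAC letters in 2 places, 167 and 68 bases before the start, a motif that 45.4% of windows hold. The Id2 window held 1 GGCGCC, found in 10.4% of windows, 231 bases before the start, and 1 E-box, found in 68.9%, 196 bases before it. These letter matches are descriptions and the arrays measured no binding there.

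Id4 and Bambi were not well above background on any of the 10 arrays, so 7 of the 9 members were measured. Levels below are log2 of the signal over the 75th percentile of the array, so that 0 is the level of that percentile. A probe's level is compared across arrays and never with another probe's. The Id4 probe (Id4, chr13:48261116-48266028 in GRCm38.p6) read -5.83 to -3.31. Bambi (chr18:3507011-3516404) read -5.81 to -3.63.

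**Figure D1:**
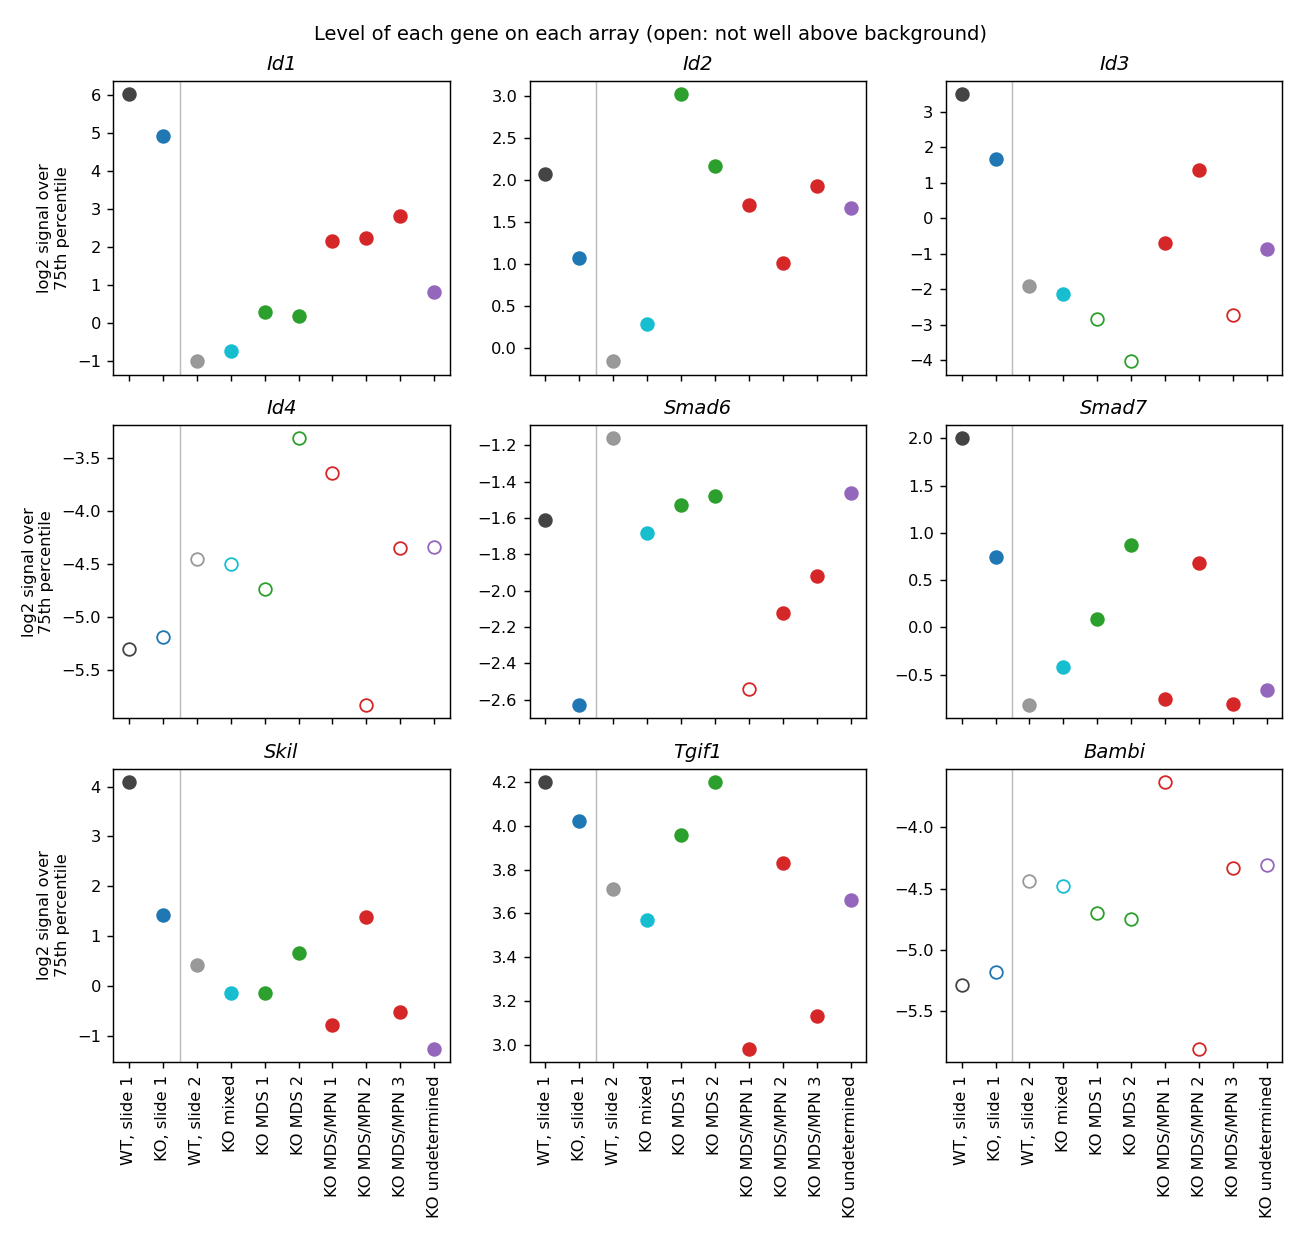
Log2 signal over the 75th percentile of the array (vertical axis) for the members on each of the 10 arrays (horizontal axis), 1 point per array, with the 2 arrays of slide 1 left of the grey line and open points for spots not well above background. Id1 stands at 6.01 and 4.91 on slide 1 and between -1.01 and 2.81 on slide 2, whereas Tgif1 stays between 2.98 and 4.20.

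Id1 (chr2:152736251-152737410), the classic BMP-induced Id gene, was well above background on all 10 arrays. On slide 1 it read 6.01 for WT and 4.91 for KO. On slide 2 it read -1.01 for WT, -0.73 for the mixed KO array, 0.29 and 0.19 for MDS, 2.14, 2.24 and 2.81 for MDS/MPN, and 0.81 for the undetermined array. The order was thus slide 1 WT, slide 1 KO, MDS/MPN, undetermined, MDS, mixed and slide 2 WT. The MDS/MPN values (mean 2.40 ± 0.36, SD, n = 3) lay above the undetermined array and both MDS arrays with no overlap. Of the other groups of that order, MDS holds 2 arrays and the rest 1 each, so the spread behind most neighbours is not known.

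Within slide 2, Id1 was higher on 6 of 6 individual KO arrays than on the WT array. The lowest, median and highest KO values were 0.19, 1.48 and 2.81, against -1.01 for WT. The difference was 2.42 ± 0.99 (SE; 95% interval 0.18 to 4.66), a 5.35-fold higher mean, with an adjusted p of 0.918 by limma, so Id1 did not pass the test. It was 1.62 to 2.62 under the other scalings of these arrays, and 1.24 with the KO arrays in the line of the WT array, both MDS, alone. Under the time labels of the value table, which set the KO arrays against the WT array of slide 1, it was -4.60.

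Id2 (chr12:25093799-25096092), an Id gene known for its part in innate lymphoid and erythroid development, was also measured on all 10 arrays. On slide 1 it read 2.07 for WT and 1.07 for KO. On slide 2 it read -0.16 for WT, 0.28 for the mixed array, 3.02 and 2.17 for MDS, 1.70, 1.01 and 1.93 for MDS/MPN, and 1.67 for the undetermined array. The highest values were thus on the MDS arrays, and the WT and mixed arrays of slide 2 were the lowest of the 10.

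The lowest, median and highest of the 6 individual KO arrays for Id2 were 1.01, 1.82 and 3.02, all above the WT array of their slide. The difference was 2.08 ± 0.65 (95% interval 0.59 to 3.56), or 4.22-fold, with an adjusted p of 0.459 by limma. Id2 did not pass either, and it was 1.60 to 2.28 under the other scalings and 2.76 with the KO arrays in the line of the WT array alone. The value table's labels gave -0.15.

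Id3 (chr4:136143822-136145392), the Id gene best known from lymphocyte development, was measured on 7 of the 10 arrays. It read 3.49 for WT and 1.66 for KO on slide 1. On slide 2 it read -1.90 for WT, -2.14 for the mixed array, and -0.69, 1.37 and -2.74 for MDS/MPN. It read -2.85 and -4.03 for MDS and -0.88 for the undetermined array. The MDS arrays and MDS/MPN replicate 3 were not well above background, so those readings are not levels. On slide 2, the KO arrays lay on both sides of the WT array and the difference was 0.26 ± 1.63 (95% interval -3.45 to 3.97, adjusted p = 1 by limma). Against the WT array of slide 2, the MDS mean was at least 1.65-fold lower, where a dim reading was replaced by the least signal that passed the background call on that array.

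Smad6 (chr9:63953076-64022085), the inhibitory Smad that preferentially blocks BMP signalling, was lower on each of the 8 KO arrays than on its slide's WT array. On slide 1 it read -1.61 for WT and -2.63 for KO. On slide 2 it read -1.16 for WT, -1.68 for the mixed array, -1.53 and -1.48 for MDS, -2.54, -2.12 and -1.92 for MDS/MPN, and -1.46 for the undetermined array. MDS/MPN replicate 1 was not well above background there. The 6 individual KO arrays ran from -2.54 through a median of -1.72 to -1.46. Over both slides with slide as a block, the difference was -0.79 ± 0.36 (95% interval -1.59 to 0, adjusted p = 0.901 by limma). On slide 2 alone it was -0.68 ± 0.50 (adjusted p = 1). Its size depended on the correction for background, with -0.17 over both slides at its smallest among the other scalings and -1.0 at its largest. Among all 22371 features of that fit, 5.46% were likewise below the WT array of their slide on all 8 KO arrays, and 1 of the 7 measured members was.

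Smad7 (chr18:75367365-75395935), the inhibitory Smad that answers both TGF-beta and BMP, read 2.0 for WT and 0.74 for KO on slide 1. On slide 2 it read -0.82 for WT, -0.42 for the mixed array, 0.09 and 0.87 for MDS, -0.76, 0.68 and -0.81 for MDS/MPN, and -0.66 for the undetermined array. The lowest, median and highest of the individual KO arrays were -0.81, -0.28 and 0.87. All 6 lay above the WT array, but MDS/MPN replicates 1 and 3 and the undetermined array did so by little. The difference on slide 2 was 0.72 ± 0.71 (95% interval -0.90 to 2.34, adjusted p = 1 by limma), which is within its error, and the value table's labels turned it to -2.10.

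Skil (chr3:31095058-31122923), which encodes the Smad co-repressor SnoN, had a probe printed in 10 spots. Those spots had an SD of 0.0516 to 0.299 (log2) within an array. Skil read 4.09 for WT and 1.42 for KO on slide 1. On slide 2 it read 0.42 for WT, -0.13 for the mixed array, -0.14 and 0.66 for MDS, -0.78, 1.39 and -0.51 for MDS/MPN, and -1.26 for the undetermined array. The individual KO arrays, from -1.26 through a median of -0.32 to 1.39, thus lay on both sides of the WT array, with 2 of 6 above it. The difference was -0.53 ± 0.88 (95% interval -2.52 to 1.46, adjusted p = 1 by limma). Over both slides it was -1.31 ± 0.70 (adjusted p = 0.954). The other Skil probe was well above background on 4 of 10 arrays and gave -1.07 in that fit and -2.37 for the slide 1 pair, the same direction as the main probe.

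Tgif1 (chr17:70844205-70853532), a homeodomain co-repressor of Smad2 and Smad3, had the narrowest range of the 7 measured members, 1.22 over the 10 arrays. It read 4.20 for WT and 4.02 for KO on slide 1, 3.71 for WT and 3.57 for the mixed array on slide 2. The individual KO arrays read 3.96 and 4.20 for MDS, 2.98, 3.83 and 3.13 for MDS/MPN, and 3.66 for the undetermined array. Their lowest, median and highest values were 2.98, 3.74 and 4.20. The difference on slide 2 was -0.08 ± 0.53 (95% interval -1.29 to 1.13, adjusted p = 1 by limma), with a direction that turned under median scaling (0.12).

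As a set on slide 2, 4 of the 7 measured members were on average higher and 3 lower in KO, with a median difference of 0.26 against -0.01 over all 19597 features. None passed the adjusted test, and 2 members, Id1 and Id2, had an unadjusted p under the threshold of 0.05. Over all features, 0.00510% passed as higher, 0.582% as lower, and 4.67% had an unadjusted p under that threshold. Id1, Id2 and Smad7 were the 3 members with all 6 individual KO arrays above the WT array, against 9.28% of features. Smad6 was the 1 member with all 6 below it, against 13.9%. All of these differences share the single WT array.

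The mixed KO array stayed close to the WT array of its slide. Across the 7 measured members it differed from that array by 0.13 to 0.56 (log2), and 0 of 7 were at least 2-fold apart, while 2.29% of all features were at least 2-fold higher and 4.65% lower. Its Id1 and Id2 levels, -0.73 and 0.28, were below those of all 6 individual KO arrays, whose lowest were 0.19 and 1.01. That pattern held for 2 of 7 members and for 7.33% of features, and the opposite one for 0 of 7 members and 9.59%. With the mixed array added to the KO group, the slide 2 differences were 2.11 for Id1 and 1.84 for Id2.

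**Figure D2:**
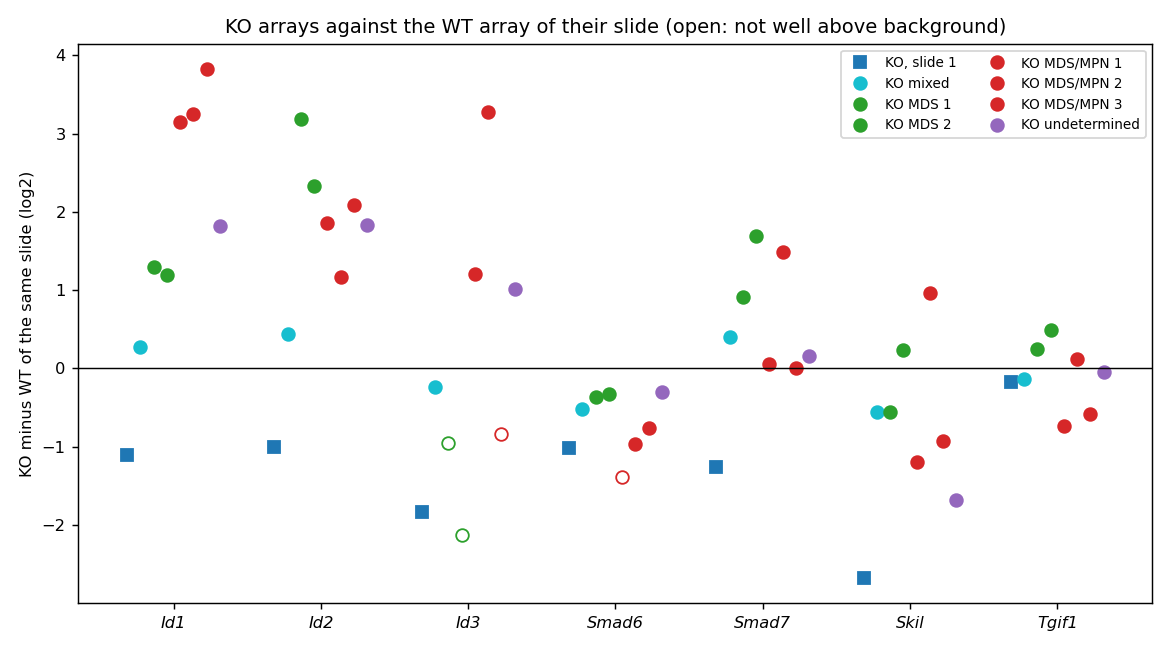
Each KO array minus the WT array of its slide (vertical axis, log2 difference) for the 7 measured members (horizontal axis), with squares for the slide 1 KO array, circles for the 7 KO arrays of slide 2 and open symbols for spots not well above background. Id1 and Id2 lie above 0 on all slide 2 arrays and at -1.10 and -1.0 on slide 1, and Smad6 lies below 0 on all 8.

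On slide 1, the KO array read lower than the WT array for 7 of the 7 measured members. With 1 array of each genotype there is no replicate check and no test. The differences, KO minus WT, were -1.10 for Id1, -1.0 for Id2, -1.83 for Id3, -1.02 for Smad6, -1.26 for Smad7, -2.67 for Skil and -0.17 for Tgif1. Skil, 6.38-fold lower, stood apart from the rest by size. In this pair 5 of 7 members were at least 2-fold lower and 0 at least 2-fold higher, against 12.2% and 12.9% of 22436 features, and the median was -1.10 for the members and 0.23 for all features. All 7 kept that direction under the other scalings, but Smad6 shrank to -0.31 at its smallest. Cell markers differed within the same pair. Neutrophil sums of linear levels were 327 for WT and 2790 for KO, and mast cell and basophil sums 5.25 and 38.9. The neutrophil sums came mostly from the early granule genes Mpo and Ctsg, at 6.95 and 6.57 for WT and 10.61 and 10.01 for KO. S100a9, Ltf and Ngp read lower on the KO array and the rest of that list higher. The mean log2 level of the list was 1.83 for WT and 2.97 for KO. Log2 levels of the stem cell markers Procr and Hlf were 5.36 and 3.97 for WT and 1.43 and 1.35 for KO. Ly6a, Ly6e, Cd34 and Flt3 of the LSK list read higher on the KO array, and the rest of that list lower. Vwf, of the megakaryocyte list, read 4.72 for WT and 1.52 for KO. In its list Pf4 and Itga2b read higher on the KO array and the others lower. For all LSK markers, the sums were 556 for WT and 710 for KO, and the mean log2 levels 4.35 and 3.14. Their part in the member differences was not tested.

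The genotype difference on slide 2 was set against that on slide 1 in 1 fit. It was more positive on slide 2 for 7 of 7 members, with a median of 2.09 for the members and -0.23 for all features. All 7 values share the same WT array of each slide and the same KO array of slide 1, so they are not independent. For Id2 the difference of differences was 3.08 ± 1.09 (95% interval 0.60 to 5.56, adjusted p = 0.766 by limma). For Id1 it was 3.52 ± 1.63 (adjusted p = 1), and for Smad7 1.99 ± 1.19 (adjusted p = 1). None of the 7 passed, and neither did any of the 23307 features by this limma fit, although 5.02% had an unadjusted p under the threshold, among them 1 member. Id1, Id2 and Smad7 were above WT on all 6 individual KO arrays of slide 2 and below WT on slide 1, a pattern that 3 of 7 members and 2.48% of features showed. The table's time labels turned the sign of the difference of differences for 6 of the members, all but Smad6, and gave -4.88 for Id1.

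Over both slides with slide as a block, where 8 KO arrays meet 2 WT arrays, the opposed slides left small averages. Id1 differed by 0.95 ± 1.0 (adjusted p = 0.967 by limma), Id2 by 0.81 ± 0.74 (adjusted p = 0.967), and Id3 by -0.54 ± 1.21 (adjusted p = 0.992). Smad7 differed by -0.03 ± 0.59 and Tgif1 by -0.12 ± 0.37, both within their errors. Without the WT array of slide 2, whose slide then informs no genotype difference, Id1 became -1.10 and Id2 -1.0. Without the WT array of slide 1 they became 2.11 and 1.84. Of all features, 0.00447% passed as higher and 0.00894% as lower, 5.55% had an unadjusted p under the threshold, and 0 members did.

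The widest spread in Id1 lay between the WT arrays of the slides. Id1 was 7.02 higher on the slide 1 WT array than on the slide 2 WT array, a 130-fold difference that 5 of 22049 features matched or exceeded, Id1 included. Id3 was 41.9-fold higher, Skil 12.7-fold, Smad7 7.07-fold and Id2 4.70-fold. Tgif1 differed by 0.49 and Smad6 by -0.45, the latter turning to 0.10 under median scaling. So 5 of 7 members were at least 2-fold higher on the slide 1 WT array, against 14.1% of features, and 0 of 7 at least 2-fold lower, against 9.91%. On both slide 1 arrays, Id1, Id3 and Skil were above all 8 arrays of slide 2, against 11.9% of 21015 features, and Id1 alone of the members was so by at least 2-fold, against 1.04%.

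Immediate early genes, such as Fos, Jun and Egr1, which cells induce quickly after handling or stimulation, were also highest on slide 1. The linear levels of the 15 listed genes summed to 2590 on the WT array and 1930 on the KO array of slide 1. On slide 2 the sum was 470 for WT, 502 for the mixed array, 144 and 97.2 for MDS, 56.6, 990 and 78.0 for MDS/MPN, and 69.8 for the undetermined array. Of the 15 genes, 10 to 14 were well above background per array. Within slide 2, MDS/MPN replicate 2 had the highest sum and the highest Skil and Id3, but Smad7 was highest on MDS replicate 2, where the sum was 97.2. For Id1 within slide 2, the WT and mixed arrays, with sums of 470 and 502, had the lowest levels. MDS/MPN replicates 1, 2 and 3, with sums of 56.6, 990 and 78.0, read 2.14, 2.24 and 2.81. The part of these genes' induction in the member differences was not tested.

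MDS/MPN arrays read higher than MDS arrays for Id1 and lower for Id2 and Tgif1, with no overlap. The Id1 difference was 2.16 ± 0.37 (95% interval 1.26 to 3.07), 4.48-fold, with an adjusted p of 0.941 by limma, and it stayed between 1.77 and 2.29 over 13 other settings. Id2 went the other way, by -1.05 ± 0.46 (adjusted p = 0.991), or 2.07-fold lower in MDS/MPN. Id3 averaged 3.83-fold higher in MDS/MPN, where 2 of 3 arrays and 0 of 2 MDS arrays were well above background. The dim MDS readings were replaced as described for Id3 above. The dim reading of MDS/MPN replicate 3 was averaged as read, so this is no strict lower bound. Unreplaced readings gave an adjusted p of 0.991 by limma. Without MDS/MPN replicate 2, which read 1.37, the value was 1.88-fold on the same terms. Without replicate 3, with both remaining MDS/MPN arrays above background, it was at least 7.82-fold. Smad6 differed by -0.69 ± 0.35 and Tgif1 by -0.77 ± 0.40, both with an adjusted p of 0.991. Smad7 (-0.78 ± 0.59) and Skil (-0.23 ± 0.74) overlapped between the groups.

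By limma 0 of 20727 features passed in either direction in the disease comparison. At an unadjusted p under 0.05 were 310 higher and 612 lower, or 4.45% in all, and 1 member, Id1, among them. Without MDS/MPN replicate 2, 0 of 21533 features passed, but 4090 higher and 2385 lower had an unadjusted p under 0.05. These counts exceeded those without any other array. The members then had adjusted p-values by limma from 0.117 (Id1) to 0.266 (Id3). By their readings, all 3 MDS/MPN arrays lay above both MDS arrays for 2 of 7 members, Id1 and Id3, against 7.75% of features, and below both for 3 of 7, Id2, Smad6 and Tgif1, against 12.0%. For Id3 that order was not measured, since MDS/MPN replicate 3 and both MDS arrays were not well above background. For Smad6 it rests on MDS/MPN replicate 1, also not well above background, on an array where the least signal that passed was -1.51, against -1.53 and -1.48 for MDS. Both MDS arrays were in 1 line of slide 2 and all 3 MDS/MPN arrays in the other, so disease label and line cannot be told apart. Megakaryocyte marker sums, 52.7 and 42.6 in MDS and 251, 29.4 and 201 in MDS/MPN, overlapped, and so did neutrophil sums of 1660 and 1070 against 2880, 1340 and 4090. B cell sums did not overlap, at 30.7 and 27.0 against 42.6, 82.8 and 40.7. The mean log2 levels of that list did overlap, at -0.91 and -1.86 against -0.69, 1.07 and -1.39. Within it Cd79b, the brightest gene on both MDS arrays, read 4.60 and 4.56 against 5.14, 4.64 and 5.22. LSK marker sums did not overlap, at 686 and 718 against 540, 454 and 637, nor did the list's mean log2 levels, at 3.79 and 3.78 against 2.81, 3.25 and 3.1. Within that list Procr read 3.25 and 2.97 against -0.15, 1.41 and 0.50, and Hlf 4.01 and 4.29 against 0.57, 2.17 and 1.1 (log2 levels). Ly6a, Ly6e, Slamf1, Mecom and Gata2 overlapped between the groups and were not all lower in MDS/MPN. Ly6e, for example, read 7.59 and 7.53 against 8.15, 7.46 and 8.43. The part of these cells in the member differences between diseases was not tested.

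**Figure D3:**
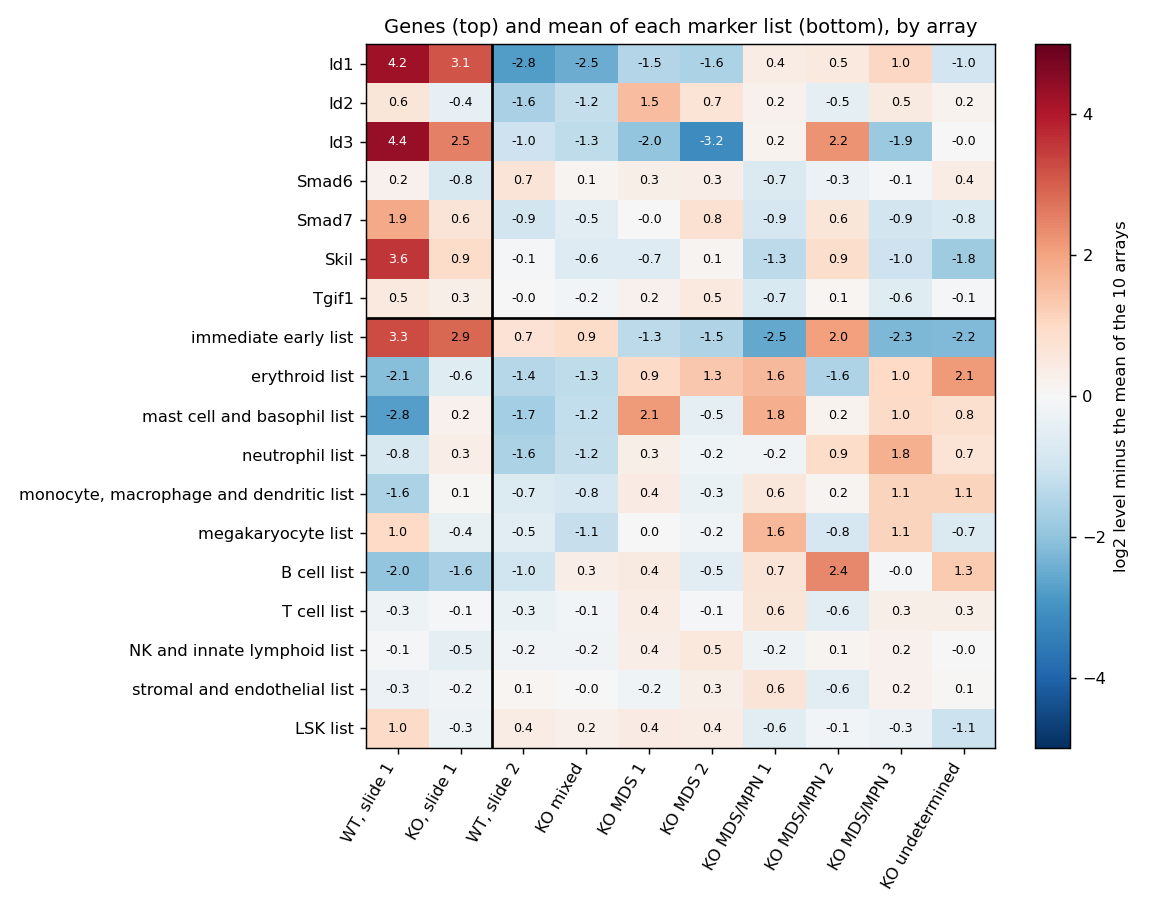
Log2 level minus the mean of the 10 arrays (colour and printed value) for the measured members in the upper rows and for the mean of each marker list in the lower rows, with 1 column per array. Id1 and the immediate early list are both high on slide 1, and within slide 2 the MDS/MPN arrays 1 and 3 are above the mean for Id1 and below it for that list, and array 2 is above it for both.

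Markers of other cells in or near the gate were summed beside the members. Erythroid sums on the 6 individual KO arrays ran from 86.8 to 620, against 91.8 on the WT and 95.3 on the mixed array of slide 2. They were 430 and 620 for MDS, 438, 86.8 and 312 for MDS/MPN and 607 for the undetermined array, so MDS/MPN replicate 2, the individual KO array with the least Id2, was also the one with the least erythroid signal. Of 15 erythroid genes, 10 to 15 were well above background per array. Mast cell and basophil sums were 23.6 to 121 on the individual KO arrays and 14.3 on the WT array, with 8 to 10 of 10 genes above background against 5.

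Neutrophil sums were 1070 to 4450 against 1100 on the WT array, and B cell sums 27.0 to 82.8 against 27.0. Monocyte, macrophage and dendritic sums were 208 to 274 against 234, T cell sums 19.7 to 27.1 against 25.8, megakaryocyte sums 29.4 to 251 against 37.6, and stromal and endothelial sums 21.3 to 90.7 against 75.2. By mean log2 level, some lists were above the WT array on all 6 individual KO arrays. These were neutrophil (2.44 to 4.42 against 1.08) and mast cell and basophil (-0.11 to 2.48 against -1.35). The others were B cell (-1.86 to 1.07 against -2.34) and monocyte, macrophage and dendritic (-0.1 to 1.35 against -0.46). In the last list, 9 to 10 of 11 genes were well above background against 6, and Siglech, at 7.67 on the WT array, was the brightest. T cell, megakaryocyte and stromal means lay on both sides of WT. The part of these cells in the member differences was not tested. For NK and innate lymphoid cells, where Id2 is a defining factor, the sums of 9 genes were 1.67 to 3.94 against 2.97. Ncr1 and Klrk1 were not well above background on any array, whereas Gata3 was on 10 and Klrb1c, Klrd1 and Rora on 6 each. Klrd1 read -2.38 to -0.78 on the individual KO arrays against -3.62 on the WT array, and Klrb1c -3.43 to -0.36 against -0.22. The Klrd1 reading on the WT array and the lowest Klrb1c reading were below the least signal that passed the background call there. Those readings are not levels. In bulk RNA, a change in the share of a cell type and a change of RNA per cell cannot be told apart.

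Around the members, 105 other genes of the pathway were listed by role, of which 104 were on the array. None passed a test in the 4 tested comparisons, by limma, with 56 to 67 of them measured. On slide 2, the median KO minus WT difference was -0.09 for receptors (10 of 17 measured), -0.16 for ligands (12 of 28) and -0.18 for signal Smads (5 of 6). It was 0.07 for inhibitors (11 of 18) and -0.33 for other target genes (8 of 17). For the helix-loop-helix partners of Id proteins and their relatives, a list that includes Lmo2 and Ldb1, it was -0.09 (10 of 19). The median of all features was -0.01.

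Among receptors, Bmpr1a, a type I BMP receptor, read lowest on the WT array of slide 2, where it was not well above background. Its levels were -4.52 there, -1.11 on the mixed array, 0.09 and -0.05 for MDS, -0.45, -0.31 and -0.25 for MDS/MPN and -4.36 for the undetermined array, also not above background. On slide 1 it read -1.90 for WT and -0.57 for KO. On slide 2 the individual KO mean was 2.74-fold above the least signal that passed the background call on the WT array. That mean took the dim undetermined array as read. Of the individual KO arrays, 5 of 6 were above background (adjusted p = 0.875 by limma). Of the type II receptors, Acvr2a was well above background on 3 of 10 arrays and at least 1.32-fold lower in KO on slide 1. Bmpr2, above background on 7 of 10, differed over both slides by -0.84 ± 0.68.

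Of 15 ligands measured over both slides, 4 had a higher mean in KO, with a list median of -0.38 against 0.04 for all features. Tgfb3 differed by -1.69 ± 0.40 over both slides (adjusted p = 0.475 by limma), with 2 of 2 WT and 2 of 8 KO arrays above background. It read 0.17 and -2.43 on slide 1 for WT and KO, and -1.65 on the WT array of slide 2. Bmp4, which activates Smad1 and Smad5, was above background on the WT array of slide 1 and 1 KO array, and on slide 1 it was at least 23.5-fold lower in KO. Gdf15, a divergent family member, was above background on 2 of 2 WT and 4 of 8 KO arrays, with slide 2 levels of 1.20 for WT and a range of -4.38 to 1.16 in the individual KO arrays.

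Of 5 measured signal Smads, 0 differed by 2-fold over both slides, with Smad5 at -0.43 ± 0.39, Smad1 at 0.32 ± 0.36 and Smad2 at -0.06 ± 0.31 over both slides. Of the inhibitors, Fstl1 differed by -1.52 ± 0.75, Dand5 by -0.91 ± 0.41 and Fstl3, which binds activin, by 1.37 ± 0.58, none past the test. Among other target genes, Cdkn1c, a cell-cycle inhibitor of quiescent stem cells, differed by -1.84 ± 0.71 (adjusted p = 0.784) and Tsc22d1 by -1.31 ± 0.61. Hey1 and Hes1, Notch-responsive repressors, were each well above background on 2 of 10 arrays, so no difference over both slides is given for them. Of the helix-loop-helix partners and relatives, Tcf15 differed by -1.56 ± 0.54 (adjusted p = 0.701 by limma). Tcf3, an E protein that Id proteins bind, differed by 0.84 ± 0.38 (adjusted p = 0.894 by limma). On the slide 1 pair, 8 of 12 measured target genes were at least 2-fold lower in KO, with a median of -1.84. So were 6 of 16 ligands, 2 of 11 receptors, 2 of 11 inhibitors, 2 of 12 helix-loop-helix partners and relatives and 0 of 5 signal Smads, against 12.2% of all features. Junb belongs to the target genes and to the immediate early list.

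**Figure D4:**
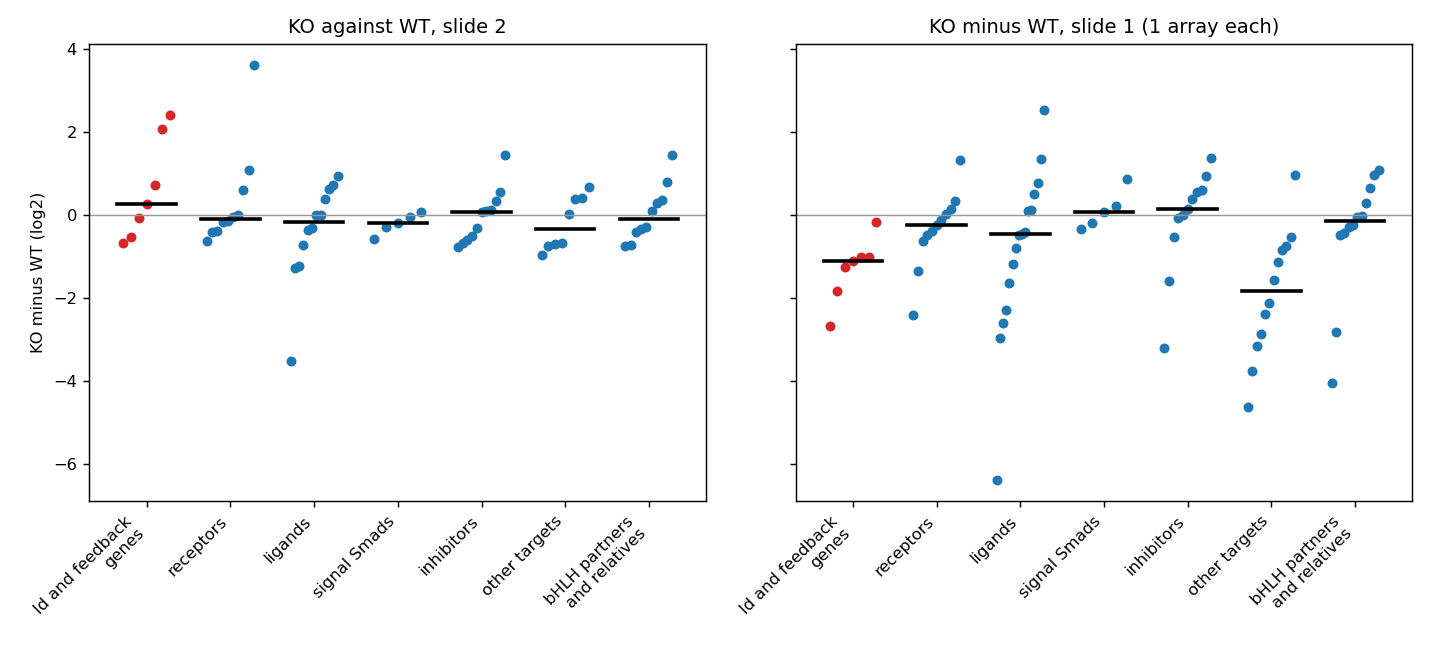
KO minus WT (vertical axis, log2) for each measured gene of the member set and of the 6 pathway lists (horizontal axis), on slide 2 in 1 panel and for the slide 1 pair in the other, 1 point per gene. Other target genes have a median of -0.33 on slide 2 and -1.84 on slide 1, and the signal Smads stay within 2-fold in both.

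Some genes tracked single members across the arrays, among 9703 named genes measured on all 10. These r values share the slide difference, the depth and the small number of arrays, and are descriptions. Genes most like Id1 included A530032D15Rik (r = 0.937 over 10 arrays, 0.826 over the 8 arrays of slide 2) and Dyrk3 (0.898 and 0.664). For Id2 the 3 most alike were Eps15 (0.870 and 0.887), Fam43a (0.838 and 0.968) and the globin gene Hbb-bt (0.818 and 0.943). Smad7 was most like Mcl1, Klf10 and Slc25a36 (0.930, 0.929 and 0.927), Skil most like Trip4, Spty2d1 and Spry1 (0.974, 0.971 and 0.966), and Tgif1 most like Atg7, Cd1d1 and Lemd3 (0.967, 0.964 and 0.948). Within the members, Smad7 and Skil had r = 0.90 over 10 arrays and 0.73 within slide 2, and Id1 and Id3 0.80 and 0.41. Id1 and Id2 had r = 0.28 and 0.40, and Id1 and Smad6 -0.56 and -0.78.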

How the data were processed

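Cy3-labelled cRNA was prepared from 0.02 µg of RNA per sample, per the labels' protocols, and hybridised to 10 arrays. The deposited scanner files hold an intensity per spot from Feature Extraction 10.7.1.1, per the file headers; the submitters' processing notes name version 9.1. The authors' value table gives a ratio of each intensity to the 75th percentile of its array, found by setting columns against scanner files; its scaling is not stated. Here, log2 of the deposited intensity was taken minus the log2 75th percentile of the array. Spots of a probe were averaged, and a gene was read from its brightest probe. Probes were named through RefSeq accessions and the RefSeq table of GRCm38.p6 (27656 of 55681 probes named, 28025 kept unnamed). A feature was tested when well above background on at least 50% of the arrays of 1 group.

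Tests used limma 3.58.1 in R 4.3.3, with Benjamini-Hochberg adjustment over all features and a threshold of 0.05. Comparisons were the 6 individual KO arrays against the WT array of slide 2, all arrays with slide as block, MDS/MPN against MDS, and the genotype difference between slides (a lone array being given the spread of the KO arrays). Scripts were tested on simulated data. The members, lists and tests were chosen with earlier results of these data known. Named genes were the members, up to 3 genes per pathway list with the largest difference over both slides, and the 3 genes with the highest r for each member measured on all arrays, of which 1 is not reported here. The number of arrays limits precision. Figures used Python 3.11.15 and matplotlib 3.10.9.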

Additional observations from a re-analysis of the deposited data

Results flagged for a closer look

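Id1, Id2 and Smad7 had opposite genotype differences on the slides. All 6 individual KO arrays of slide 2 lay above the WT array of that slide, and the KO array of slide 1 lay below its WT array. The difference of differences was 3.52 for Id1, 3.08 for Id2 and 1.99 for Smad7 (log2), with adjusted p-values of 1, 0.766 and 1 by limma. Slide 1 has 1 array of each genotype, and slide and time label cannot be told apart.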

How the results depend on the processing

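None of the 7 measured members passed an adjusted test under any alternative. The lowest adjusted p over the alternatives was 0.0848, for Skil on slide 2 with the time labels of the value table. Over all features, 115 passed on slide 2. That count was 183 with median scaling, 212 with the percentile of probes detected on all arrays, 247 with quantile normalization, 50 with no filter on dim probes and 182 with the mixed array. It was 0 with probes above background on every array, 0 with a robust trended variance and 0 with the KO arrays in the line of the WT array, where an unadjusted p under 0.05 was given by 138 higher and 75 lower, 286 and 552, and 285 and 479 features by limma. Leaving out 1 array gave 0 to 215. It was 0 without MDS replicate 1, 4 without MDS replicate 2, 215 without MDS/MPN replicate 2, 0 without MDS/MPN replicate 3 and 12 without the undetermined array. Over both slides 3 passed. There were 5 with median scaling, 6 with the detected percentile, and 0 with normexp, with no filter, with probes above background on every array, with the robust variance, or without the mixed and undetermined arrays. Leaving out 1 array gave 0 to 177, with 177 without the WT array of slide 1, 154 without the KO array of slide 1 and 12 without the WT array of slide 2. For the difference between slides 0 passed, against 191 with quantile normalization and 2 with the value table's labels. In the slide 1 pair, 5612 features were at least 2-fold apart, against 1406 with normexp, 9059 with no filter and 3381 with probes above background on both arrays.

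Directions of single members turned in these cases. On slide 2, Tgif1 was 0.12 with median scaling and 0.37 in the line of the WT array, and Id3 was -1.54 in that line. The table's labels gave Id1 -4.60, Id2 -0.15, Id3 -5.13 and Smad7 -2.10 on slide 2, and -4.88 for Id1, -0.59 for Id2, -4.89 for Id3, -3.64 for Skil, -2.49 for Smad7 and -0.43 for Tgif1 as differences between slides. Over both slides, Smad7 was 0.10 and Tgif1 0.01 with median scaling, Smad7 was 0.05 without the mixed and undetermined arrays, and Id1 was -0.92 with no slide block. Leaving out 1 array moved Tgif1 from -0.20 to 0.05 and Id3 from -0.34 to 0.74 on slide 2. Over both slides it moved Id1 from -1.10 to 2.11, Id2 from -1.0 to 1.84, Id3 from -1.83 to 0.19 and Smad7 from -1.26 to 0.68. It moved Skil from -0.91 to 0.18 between the diseases and Tgif1 from -0.03 to 0.22 between slides. The cause was not tested, beyond the exchange of arrays that the table's labels make. No paired analysis was possible because the replicate numbers were given in accession order and pair no samples. Id3 and Smad6 were close to background on some arrays, which limits their precision.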

Other observations

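On slide 1, the WT array alone carried signals of 3 further genes tied to BMP or Notch signalling. Bmp4 read 1.39 there and -5.01 on the KO array, Hey1 -0.38 and -5.0, and Hes1 0.85 and -3.19, where the KO values were not well above background. As lower bounds, the KO array was at least 23.5-fold lower for Bmp4, at least 6.88-fold lower for Hey1 and at least 16.1-fold lower for Hes1. The WT array of slide 2 read -2.31, -4.27 and -2.80, none well above background. Hey1 was well above background on 2 of 10 arrays, as were Bmp4 and Hes1.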
